A study of Mus musculus with 9 samples.

Results

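The genes described here make triglyceride in the fat cell and supply its glycerol backbone: Gpd1, Pck1 and Aqp7 on the glycerol side, and Gpam, Agpat2, Agpat3, Lpin1, Lpin2, Dgat1 and Dgat2 along the chain that adds fatty acids to it. The 10 genes were taken by symbol from the array annotation, out of 18193 genes with a probe set of a single symbol, and each was represented by its probe set of highest mean over all arrays. Gene expression had been measured on 9 single-colour arrays of 3T3-L1, mouse fibroblasts that turn into fat cells under a hormone mixture, in 3 groups of 3 arrays. In one group adipocytes had been electroporated with PPAR gamma siRNA, whose target is the nuclear receptor at the head of fat cell differentiation. In another they had taken a non-targeting siRNA in the same way, called control siRNA here, and the last group was of preadipocytes, neither differentiated nor, by their labels, given siRNA. Both adipocyte groups had received 1 µM dexamethasone, 10 µg/ml insulin and 0.5 mM IBMX for 2 days and insulin alone for 2 more, and their culture was regarded as mature from day 8, with at least 95% of cells converted. On day 14 they were detached with trypsin and collagenase and given 2 or 3 nmol of siRNA, with no record of which array had which amount. How long after the siRNA they were harvested was not given in the sources used here, and the series calls the 3 arrays of a group technical replicates, so the p-values cover only the spread of these arrays. Electroporation was given to adipocytes alone and cannot be told apart from differentiation where adipocytes are set against preadipocytes.

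Triglyceride is built on glycerol 3-phosphate. In fat cells most of it comes from dihydroxyacetone phosphate, reduced by the enzyme that Gpd1 encodes, and the dihydroxyacetone phosphate itself comes either from glucose or, by way of phosphoenolpyruvate made by the Pck1 enzyme, from pyruvate and lactate, the route called glyceroneogenesis. Acyltransferases then add fatty acids to give lysophosphatidate and phosphatidate, lipins remove the phosphate to give diacylglycerol, and the DGAT enzymes add the last fatty acid. Values below are log2 probe set values as deposited, so a difference of 1 is a 2-fold change, and levels of different probe sets are not compared with each other. Changes are log2 differences ± SE from 1 limma fit of all 9 arrays. The knockdown change is PPAR gamma siRNA minus control siRNA and the differentiation change is control siRNA adipocytes minus preadipocytes, and the threshold for a call was an adjusted p of 0.05 over all 45037 probe sets tested.

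Array medians lay between 4.82 and 4.89, and correlations between arrays of a group between 0.994 and 0.998. Pparg, the target, stood at 9.54, 9.58 and 9.64 with PPAR gamma siRNA, at 12.89, 12.82 and 12.65 with control siRNA and at 8.35, 8.20 and 8.12 in preadipocytes, a 9.20-fold fall in the knockdown (-3.20 ± 0.09, adjusted p = 1.27e-09). Of 10 fat cell markers, 8 were measured, and their summed level was 14.23 to 14.34 with PPAR gamma siRNA, 16.15 to 16.22 with control siRNA and 8.20 to 8.39 in preadipocytes on the log2 scale. Leptin, Lep, was close to the low end of the arrays in all groups, with means of 3.88 with PPAR gamma siRNA, 3.69 with control siRNA and 3.55 in preadipocytes. The 7 measured of 8 preadipocyte and fibroblast markers summed to 14.98 to 15.33 with PPAR gamma siRNA, 13.45 to 13.75 with control siRNA and 15.71 to 15.85 in preadipocytes, and 6 of them were higher with PPAR gamma siRNA than with control siRNA. The 8 macrophage markers summed to 9.20 to 9.45 with PPAR gamma siRNA, 8.38 to 8.42 with control siRNA and 8.11 to 8.20 in preadipocytes, with Ptprc, Adgre1 and Itgam at group means of 3.85 or less, below the median of every array. Csf1r had means of 6.06 with PPAR gamma siRNA, 6.15 with control siRNA and 6.05 in preadipocytes, and Lyz2 of 5.81, 5.74 and 5.59 and Fcgr1 of 4.98, 5.09 and 4.94 in these groups, all above the array medians. Of these 8, Cd14 and Cd68 were higher in the knockdown, Cd14 with means of 8.46 and 6.68 and Cd68 with means of 6.56 and 5.36 for PPAR gamma siRNA and control siRNA. None of 6 endothelial and 4 hepatocyte markers was called between the siRNA groups, and of 5 muscle markers Des was lower (-0.63 ± 0.09). The part of other cell types in the results was not tested. The difference between the 3' and 5' Actb probe sets, a sign of RNA integrity, was 0.54 to 1.25 with PPAR gamma siRNA, 0.91 to 1.30 with control siRNA and 0.23 to 0.36 in preadipocytes. The same difference for Gapdh was -0.06 to 0.06 with PPAR gamma siRNA, -0.12 to 0.11 with control siRNA and -0.19 to -0.02 in preadipocytes. It was not used as a covariate. With the Actb difference as a covariate, 9 of the 10 genes were still lower in the knockdown. Fewer fat cells and less RNA per fat cell cannot be told apart in such bulk samples.

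The glycerol side lost most of its Pck1 and Aqp7 signal with PPAR gamma siRNA, while Gpd1 fell and stayed far above preadipocytes. Pck1, the cytosolic phosphoenolpyruvate carboxykinase and key enzyme of glyceroneogenesis, stood at 3.98, 3.75 and 3.62 with PPAR gamma siRNA, 7.84, 8.61 and 8.47 with control siRNA and 3.86, 3.75 and 3.53 in preadipocytes. The PPAR gamma siRNA and preadipocyte arrays overlapped, and all 6 lay below their array medians. It fell 23.0-fold with the knockdown (-4.53 ± 0.18, adjusted p = 9.33e-09), which was the change at rank 6 from the lowest among the 18193 genes. Aqp7, the channel through which glycerol crosses the fat cell membrane, stood at 4.04, 4.24 and 4.21 with PPAR gamma siRNA, 8.00, 7.96 and 7.91 with control siRNA and 3.61, 3.62 and 4.08 in preadipocytes. The control siRNA arrays stood apart from both other groups, and the knockdown change was -3.79 ± 0.12 (adjusted p = 2.42e-09, 13.9-fold lower, rank 20 from the lowest). Gpd1, which makes glycerol 3-phosphate in the cytosol, stood at 10.40, 10.72 and 10.44 with PPAR gamma siRNA, 12.89, 12.67 and 12.80 with control siRNA and 5.03, 5.41 and 5.44 in preadipocytes. Its groups did not overlap. Gpd1 fell 4.83-fold with the knockdown (-2.27 ± 0.13, adjusted p = 1.30e-07) after a 180.3-fold rise with differentiation (7.49 ± 0.13, adjusted p = 3.55e-12), the rise at rank 13 of all genes. With differentiation Pck1 rose by 4.59 ± 0.18 (adjusted p = 1.64e-09) and Aqp7 by 4.18 ± 0.12 (adjusted p = 1.92e-10).

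**Figure D1:**
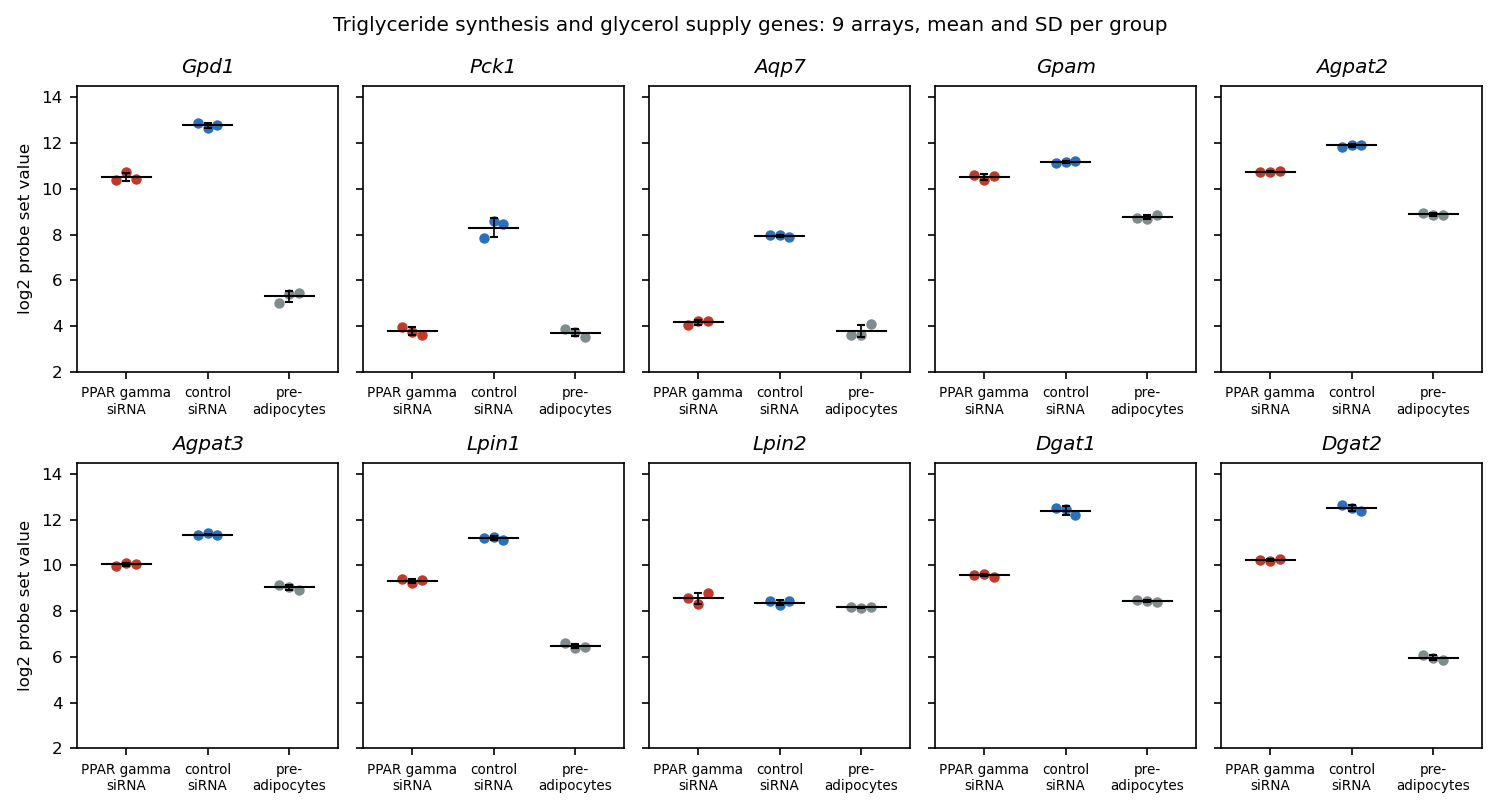
Log2 probe set values (vertical axis) of the 10 genes in the 9 arrays, with a point per array and the mean and SD of each group (n = 3) as lines and bars. Pck1 and Aqp7 lie at or below 4.24 in all PPAR gamma siRNA arrays and all preadipocyte arrays, and Lpin2 lies between 8.14 and 8.78 in all 9 arrays.

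The promoters of the pair with the largest falls are shown because both genes moved together, with CG dinucleotides in capitals. The windows run from 250 bases before to 50 bases after a RefSeq transcript start and were read from RefSeq sequence of build GRCm38.p6, at chr2:173152823-173153122 on the plus strand for Pck1 and chr4:41047913-41048212 on the minus strand for 1 of 2 overlapping Aqp7 windows.
Pck1: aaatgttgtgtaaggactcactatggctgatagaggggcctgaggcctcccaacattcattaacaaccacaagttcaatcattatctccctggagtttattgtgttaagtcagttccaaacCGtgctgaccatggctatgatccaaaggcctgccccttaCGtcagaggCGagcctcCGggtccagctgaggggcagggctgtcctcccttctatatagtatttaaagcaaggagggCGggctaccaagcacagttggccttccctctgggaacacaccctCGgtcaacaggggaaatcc
Aqp7: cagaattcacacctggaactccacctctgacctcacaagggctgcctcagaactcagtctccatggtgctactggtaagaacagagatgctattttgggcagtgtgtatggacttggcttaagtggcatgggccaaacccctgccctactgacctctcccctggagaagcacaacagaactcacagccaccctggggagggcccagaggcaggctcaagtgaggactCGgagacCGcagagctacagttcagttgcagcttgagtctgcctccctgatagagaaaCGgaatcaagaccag
The Pck1 window holds 6 CG dinucleotides and the Aqp7 window 3, against a median of 7 over all 32851 windows. The sequence ACGTCA, the core of the cAMP response element, stands from base -91 to base -86 of the Pck1 window, counted from the transcript start. It was found on either strand in 7.51% of all windows. The Aqp7 window holds the nuclear receptor core AGGTCA on the minus strand at -223 to -218 and again at -101 to -96, a sequence present in 16.3% of all windows.

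Gpam, Agpat2 and Agpat3, which act between glycerol 3-phosphate and phosphatidate, fell between 1.59-fold and 2.46-fold with the knockdown. Gpam, the mitochondrial enzyme of the first acylation, stood at 10.61, 10.38 and 10.55 with PPAR gamma siRNA, 11.14, 11.18 and 11.22 with control siRNA and 8.74, 8.70 and 8.85 in preadipocytes. The groups did not overlap, and its knockdown change of -0.67 ± 0.09 (1.59-fold lower, adjusted p = 0.000118) was the smallest among the genes called. Agpat2, which makes phosphatidate and whose loss in people causes generalised lipodystrophy, stood at 10.76, 10.76 and 10.77 with PPAR gamma siRNA, 11.83, 11.94 and 11.94 with control siRNA and 8.94, 8.86 and 8.84 in preadipocytes. It fell 2.20-fold (-1.14 ± 0.08, adjusted p = 5.34e-07), with all 3 groups apart. Agpat3, a related acyltransferase that also acts on other lysophospholipids, stood at 9.97, 10.12 and 10.07 with PPAR gamma siRNA, 11.33, 11.40 and 11.33 with control siRNA and 9.15, 9.06 and 8.92 in preadipocytes. Its knockdown change was -1.30 ± 0.09 (2.46-fold lower, adjusted p = 5.00e-07). With differentiation Gpam rose by 2.42 ± 0.09, Agpat2 by 3.02 ± 0.08 and Agpat3 by 2.31 ± 0.09, the smallest rises among the called members. Each of the 3 adjusted p was at most 1.34e-09.

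The lipins, phosphatases that turn phosphatidate into diacylglycerol, parted. Lpin1, the form lacking in the fatty liver dystrophy mouse, stood at 9.39, 9.21 and 9.34 with PPAR gamma siRNA, 11.22, 11.26 and 11.09 with control siRNA and 6.59, 6.39 and 6.45 in preadipocytes. No array of one group reached another group. It rose 26.2-fold with differentiation (4.71 ± 0.09, adjusted p = 8.44e-12) and fell 3.67-fold with the knockdown (-1.88 ± 0.09, adjusted p = 4.23e-08). Lpin2 stood at 8.56, 8.32 and 8.78 with PPAR gamma siRNA, 8.43, 8.26 and 8.44 with control siRNA and 8.18, 8.14 and 8.19 in preadipocytes. The adipocyte groups overlapped, and the knockdown difference of 0.18 ± 0.11 did not pass the test (95% interval -0.070 to 0.42, adjusted p = 0.309), nor did the differentiation difference of 0.21 ± 0.11 (95% interval -0.041 to 0.45, adjusted p = 0.163). The mean of its 4 probe sets gave a differentiation change of 0.30 ± 0.08 that passed (adjusted p = 0.00947). The other Lpin2 probe sets had knockdown differences of the opposite sign, -0.033, -0.18 and -0.17, none of which passed. With differentiation they gave 0.039, which did not pass, and 0.54 and 0.40, which did (adjusted p = 0.00575 and 0.00856).

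The windows of both lipins are shown for the contrast in their CG dinucleotides, again in capitals, in RefSeq sequence of GRCm38.p6 at chr12:16610917-16611216 on the minus strand for Lpin1 and chr17:71183282-71183581 on the plus strand for 1 of 3 Lpin2 windows.
Lpin1: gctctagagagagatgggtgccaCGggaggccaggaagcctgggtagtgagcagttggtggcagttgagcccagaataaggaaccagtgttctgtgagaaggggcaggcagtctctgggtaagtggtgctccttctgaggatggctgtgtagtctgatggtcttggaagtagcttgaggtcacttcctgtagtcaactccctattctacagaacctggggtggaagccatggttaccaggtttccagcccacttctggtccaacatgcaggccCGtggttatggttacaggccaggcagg
Lpin2: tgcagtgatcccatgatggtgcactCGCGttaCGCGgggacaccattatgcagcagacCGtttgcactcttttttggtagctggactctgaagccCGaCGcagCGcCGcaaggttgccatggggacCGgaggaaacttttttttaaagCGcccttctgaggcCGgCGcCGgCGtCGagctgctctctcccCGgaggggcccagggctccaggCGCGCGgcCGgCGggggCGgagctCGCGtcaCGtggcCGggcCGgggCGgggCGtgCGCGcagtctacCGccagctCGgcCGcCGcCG
The Lpin1 window holds 2 CG dinucleotides, 0.09 of the number its C and G content would give, and this Lpin2 window 37, a ratio of 1.05. The other Lpin2 windows hold 54 and 4. Windows were matched for 7 of the 10 genes, 11 in all, and none was used for Gpd1, Dgat1 and Dgat2. Agpat2 had 26 CG dinucleotides and Agpat3 15, while the Gpam windows had 30 and 9 and the second Aqp7 window 0. The direct repeat of AGGNCA with a single N between both copies, a form of the PPAR-RXR binding sequence, is in none of the 11 windows on either strand and in 0.381% of all windows. Such a match could overlap the core AGGTCA, which was found in 4 of the 11, of Gpam, Lpin1 and Aqp7. This core is in 16.3% of all windows, and both Aqp7 windows counted here overlap and share 1 match. A form of the C/EBP motif, TTGCNNAA, is in 3 windows, of Gpam, Agpat3 and Lpin2, and in 10.8% of all. The core ACGTCA is in those of Pck1 and Gpam, and the sterol response motif TCACNCCAC is in none of the 11 and in 1.24% of all. Only exact matches within these windows were counted. Repeats that depart from the pattern at any fixed base, or that lie elsewhere, were not searched for. These matches describe the letters of the windows and say nothing on binding.

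Both genes of the last step changed strongly in either comparison. Dgat1, which joins diacylglycerol and fatty acid in the endoplasmic reticulum, stood at 9.60, 9.60 and 9.51 with PPAR gamma siRNA, 12.52, 12.48 and 12.18 with control siRNA and 8.51, 8.45 and 8.41 in preadipocytes. It fell 7.07-fold with the knockdown (-2.82 ± 0.10, adjusted p = 3.70e-09, rank 70 from the lowest) and had risen 15.4-fold with differentiation (3.94 ± 0.10, adjusted p = 5.42e-11). Dgat2, an enzyme of another protein family that catalyses the same step, stood at 10.24, 10.21 and 10.30 with PPAR gamma siRNA, 12.65, 12.53 and 12.37 with control siRNA and 6.08, 5.96 and 5.85 in preadipocytes. The groups of both genes stood apart in all arrays. Dgat2 fell 4.81-fold (-2.27 ± 0.10, adjusted p = 1.57e-08) and had risen 93.8-fold (6.55 ± 0.10, adjusted p = 1.35e-12), at rank 23 from the highest.

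In all, 9 of the 10 genes were lower with PPAR gamma siRNA than with control siRNA and none was higher, where 16.1% of all genes tested were lower and 19.9% higher. The arrays did not overlap for the same 9, against 21.0% of all genes lower and 23.4% higher in this way. At least 2-fold falls were called for 8 and rises for none, against 4.61% and 5.68% of all genes. The median change of the 10 was -2.07, and that of all genes -0.0088. With differentiation 9 were higher and none lower, against 27.1% of all genes higher and 24.7% lower. Here the arrays stood apart for all 10, Lpin2 included, against 34.0% of all genes higher and 27.5% lower in this way. The 9 called genes were all at least 2-fold higher, against 8.83% of all genes higher and 10.6% lower. The median was 4.06 for the 10 and 0.088 for all genes. These counts describe genes picked for their place in the pathway with earlier results known, and they were not tested as a set.

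**Figure D2:**
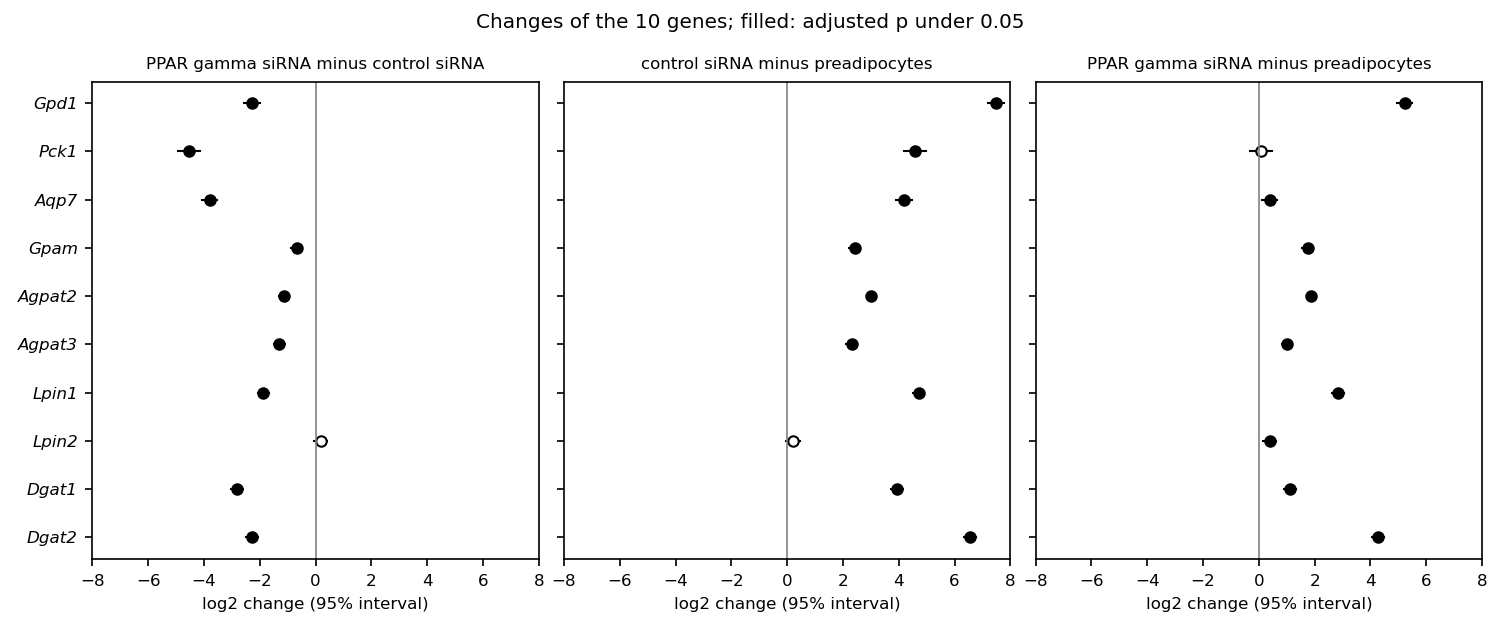
Log2 change (horizontal axis) with its 95% interval for each of the 10 genes in the 3 comparisons, from 1 fit over 9 arrays (n = 3 a group), with filled points for an adjusted p under 0.05. In the left panel 9 genes lie between -4.53 and -0.67 and Lpin2 at 0.18, and in the right panel Pck1 at 0.067 has the only interval that holds 0.

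Against preadipocytes, PPAR gamma siRNA adipocytes kept most of the chain at raised levels and had little of the Pck1 and Aqp7 signal. Of the 10 genes, 9 were higher and none lower, against 19.6% and 16.9% of all genes, with a median of 1.43 for the 10 and 0.067 for all genes. The arrays did not overlap for 8, against 28.8% of all genes higher and 21.1% lower in this way. At least 2-fold higher were 7, against 4.29% of all genes higher and 5.01% lower. Gpd1 was still 37.3-fold above preadipocytes (5.22 ± 0.13, adjusted p = 1.78e-10) and Dgat2 19.5-fold (4.29 ± 0.10, adjusted p = 8.77e-11). Lpin1 was 7.14-fold higher (2.84 ± 0.09), Agpat2 3.68-fold (1.88 ± 0.08) and Gpam 3.36-fold (1.75 ± 0.09), each with an adjusted p of at most 5.83e-08. Smaller differences were left for Dgat1 (1.12 ± 0.10, adjusted p = 5.08e-06) and Agpat3 (1.01 ± 0.09, adjusted p = 4.54e-06), and both rested on the probe set used, as the other probe sets below show. The second Gpam probe set gave 1.00 ± 0.37 and did not pass (adjusted p = 0.0618).

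Pck1 differed from preadipocytes by 0.067 ± 0.18 (95% interval -0.33 to 0.46, adjusted p = 0.822). The difference in Aqp7, 0.39 ± 0.12, passed the test (adjusted p = 0.0343), but 1 preadipocyte array at 4.08 lay above the lowest PPAR gamma siRNA array at 4.04. That in Lpin2, 0.38 ± 0.11, passed as well (adjusted p = 0.0227). Both calls, of the probe sets that stand for these genes, are fragile, and the second Aqp7 probe set is described below. The Lpin2 call ended without preadipocytes 1, 2 or 3 or PPAR gamma siRNA 1 or 3 (adjusted p = 0.0538 to 0.0806), and the Aqp7 call without preadipocytes 1 or 2 or PPAR gamma siRNA 2 or 3 (adjusted p = 0.0852 to 0.141). With the Actb 3' minus 5' difference as a covariate Lpin2 differed by 0.18 (adjusted p = 0.346) and Aqp7 by 0.31 (adjusted p = 0.227). The Actb difference was higher in all PPAR gamma siRNA arrays than in any preadipocyte array.

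Enzymes that share a step could be compared in how far they changed, as the log2 difference between both genes within each array. The 3 pairs set by step were tested over the 3 groups by an exact permutation test of the 9 arrays (1680 arrangements). Lpin1 minus Lpin2 was 0.83, 0.88 and 0.56 with PPAR gamma siRNA, 2.79, 3.00 and 2.65 with control siRNA and -1.59, -1.75 and -1.74 in preadipocytes. Lpin1 thus gained 4.51 more than Lpin2 with differentiation, and its knockdown change lay 2.05 below that of Lpin2 (change of the difference -2.05). Dgat1 minus Dgat2 was -0.64, -0.61 and -0.79 with PPAR gamma siRNA, -0.13, -0.05 and -0.18 with control siRNA and 2.43, 2.49 and 2.55 in preadipocytes, so that the Dgat1 rise with differentiation was the smaller one (change of the difference -2.61). Agpat2 minus Agpat3 was 0.79, 0.64 and 0.70 with PPAR gamma siRNA, 0.50, 0.54 and 0.61 with control siRNA and -0.21, -0.20 and -0.08 in preadipocytes, a change of 0.71 with differentiation. Each pair gave p = 0.00357 in the exact permutation test of the spread between the 3 group means, and 0.00357 after adjustment over the 3 pairs. This is the smallest p that 9 arrays in 3 groups can give, and it says that the groups differed without saying which. In the knockdown alone the Dgat1 minus Dgat2 difference changed by -0.56, but by 0.19 when all probe sets were averaged and by 0.66 with the other Dgat1 probe set, so its direction was not settled. The Agpat2 minus Agpat3 difference changed by 0.16 in the knockdown, with no overlap between the arrays of both siRNA groups.

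The 10 genes had 26 probe sets, and the 16 others served as a check. Of these, 10 were lower with PPAR gamma siRNA and none higher, and 13 rose with differentiation and none fell. All 4 Agpat3 probe sets fell with the knockdown, by -1.59 to -1.22 on the log2 scale. Against preadipocytes, however, the other 3 Agpat3 probe sets gave -0.27, -0.38 and -0.32 with PPAR gamma siRNA, none of which passed, where the one that stands for the gene gave 1.01. The second Dgat1 probe set, with means of 4.92, 6.53 and 4.98 for PPAR gamma siRNA, control siRNA and preadipocytes, fell by 1.61 ± 0.23 and differed by -0.055 ± 0.23 (adjusted p = 0.890) from preadipocytes. The first one carries the suffix s, given to probe sets that can hybridise with several genes' transcripts. One with this suffix also stands for Pck1, whose second probe set, without it, gave means of 3.19 with PPAR gamma siRNA, 9.26 with control siRNA and 2.85 in preadipocytes. There the knockdown fall was -6.07 ± 0.09 and the rest above preadipocytes 0.34 ± 0.09 (adjusted p = 0.0154), with both of these groups below the array medians. The third Pck1 probe set stayed between 2.91 and 3.02 in the 3 group means. Both Aqp7 probe sets fell alike with the knockdown, at -3.79 ± 0.12 and -3.91 ± 0.11. The second Aqp7 probe set was 0.38 ± 0.11 higher with PPAR gamma siRNA than in preadipocytes (adjusted p = 0.0173). The arrays of these groups did not overlap there, and all lay below the array medians. The second Gpam probe set changed by -0.80 ± 0.37 with the knockdown and did not pass (adjusted p = 0.150).

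**Figure D3:**
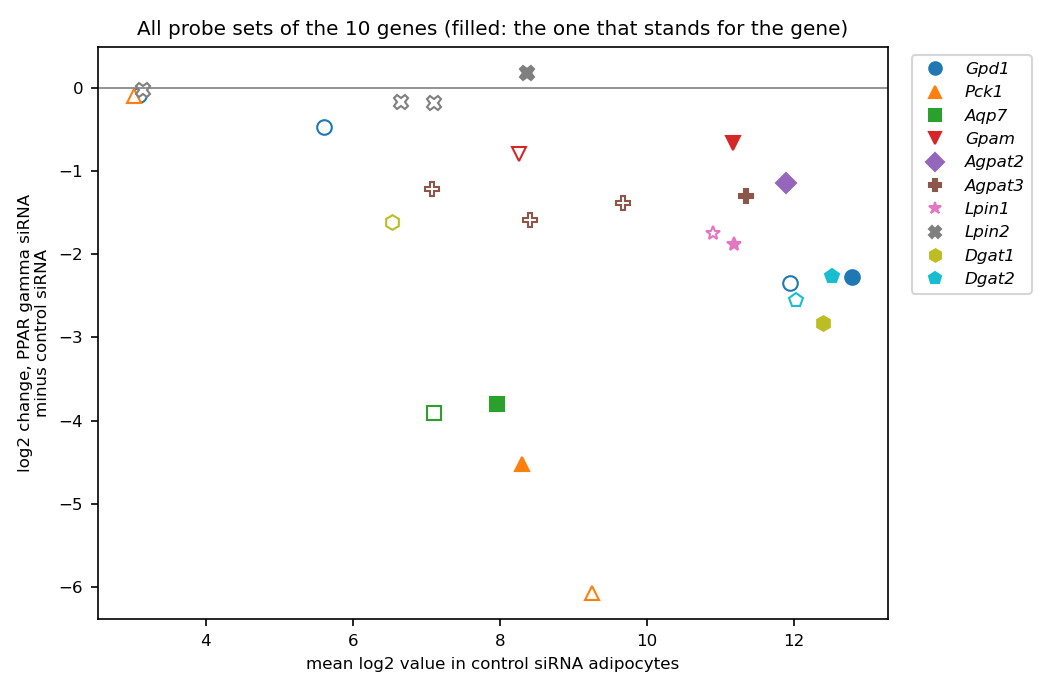
Knockdown change (vertical axis, log2) of all 26 probe sets of the 10 genes against their mean log2 value in control siRNA adipocytes (horizontal axis), with a symbol per gene and filled symbols for the probe set that stands for it. Probe sets of Gpd1, Pck1 and Lpin2 near a level of 3 lie close to 0, while the brighter ones of Gpd1 and Pck1 fell.

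Other genes of the pathway moved in both directions. The 4 lists held 57 genes, of which 52 were measured, and 15 of these were higher and 22 lower with PPAR gamma siRNA (median -0.15), where 19.9% of all genes were higher and 16.1% lower (median -0.0088). With differentiation 30 were higher and 13 lower (median 0.50), where 27.1% of all genes were higher and 24.7% lower (median 0.088). These all-gene shares apply to the counts of each list below. Among the 13 measured of 17 other acyltransferases and phosphatases, 5 rose and 5 fell with the knockdown (median -0.043). Gpat3, the microsomal glycerol phosphate acyltransferase of fat cells, had means of 8.72 ± 0.22 with PPAR gamma siRNA, 11.69 ± 0.10 with control siRNA and 4.65 ± 0.07 in preadipocytes (SD, n = 3), a knockdown change of -2.97 ± 0.11. The monoacylglycerol acyltransferase Mogat1 changed by -1.04 ± 0.15 and the acyltransferase Gpat4 by -0.65 ± 0.08. The lipid phosphate phosphatases Plpp2 and Plpp1 rose by 1.39 ± 0.11 and 1.18 ± 0.09, and Agpat4 by 0.90 ± 0.11, and each of them had fallen with differentiation. The Agpat4 probe set carries the suffix x, which like s marks possible hybridisation with other transcripts. Each list gene was read from its probe set of highest mean alone. Lpin3, the third lipin, stood at means of 5.15, 4.42 and 3.70 in PPAR gamma siRNA adipocytes, control siRNA adipocytes and preadipocytes, and was 1.45 above preadipocytes after the knockdown. With differentiation 7 of these 13 rose and 4 fell, with Gpat3 at 7.03, Mogat1 at 1.35 and Agpat5 at 0.83 the largest rises.

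Among 9 measured of 10 other genes of the supply and use of glycerol and glycerol phosphate, 4 fell with the knockdown and 1 rose (median -0.16). The gene not measured was Gk, that of glycerol kinase, for which no probe set of a single symbol was found. Pyruvate carboxylase, Pcx, which feeds oxaloacetate to glyceroneogenesis, fell by 1.54 ± 0.10 after a differentiation rise of 4.29, the glycerol phosphate phosphatase Pgp fell by 1.04 ± 0.12, and the mitochondrial glycerol phosphate dehydrogenase Gpd2 by 0.66 ± 0.10. Pck2, the mitochondrial form of the Pck1 enzyme, ran the other way, with means of 9.74 ± 0.05 with PPAR gamma siRNA, 9.23 ± 0.14 with control siRNA and 10.16 ± 0.12 (SD, n = 3) in preadipocytes, and a rise of 0.52 ± 0.10. The glycerol channels Aqp3 and Aqp9, chosen after their values were seen, differed by -0.036 ± 0.11 and 0.25 ± 0.11 between the siRNAs, neither past the test, with all group means between 4.10 and 4.65. Aqp11, another channel of this list, had means of 6.84 with PPAR gamma siRNA, 6.69 with control siRNA and 5.61 in preadipocytes. Its knockdown difference of 0.15 ± 0.15 did not pass the limma test (adjusted p = 0.544). It rose by 1.08 ± 0.15 with differentiation and was 1.24 ± 0.15 above preadipocytes after the knockdown, and both passed. With differentiation 6 of the 9 rose and 1 fell.

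**Figure D4:**
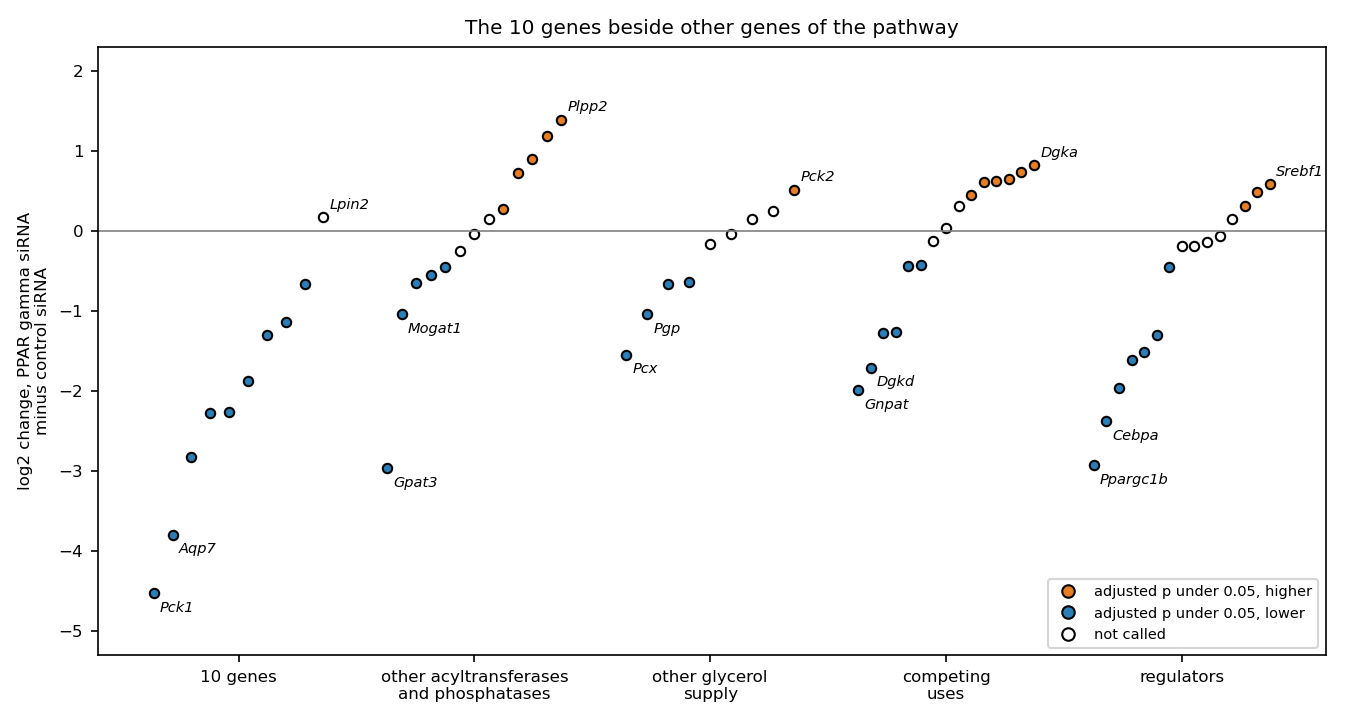
Knockdown change (vertical axis, log2) of the 10 genes and of the 52 measured genes of the 4 pathway lists, with a point per gene, in colour where the adjusted p is under 0.05. The 10 genes reach from -4.53 to 0.18 with none called higher, and each of the 4 lists has called genes on both sides of 0.

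Of the 15 genes that use the same intermediates for other lipids, 6 were higher and 6 lower in the knockdown (median 0.040), beside 19.9% and 16.1% of all genes. Gnpat, which starts ether lipid synthesis from dihydroxyacetone phosphate, changed by -1.99 ± 0.08, the diacylglycerol kinase Dgkd by -1.71 ± 0.11 and the choline phosphotransferase Chpt1 by -1.28 ± 0.09. The diacylglycerol kinase Dgka rose by 0.83 ± 0.16, the mitochondrial CDP-diacylglycerol synthase Tamm41 by 0.73 ± 0.10 and the ether lipid enzyme Agps by 0.65 ± 0.12. With differentiation, 6 of the 15 rose and 6 fell (median 0.18). Of the 15 regulators, 7 fell and 3 rose with the knockdown (median -0.19), beside 16.1% and 19.9% of all genes. With differentiation 11 rose and 2 fell (median 1.59), beside 27.1% and 24.7% of all genes. The coactivator Ppargc1b changed by -2.93 ± 0.08, the transcription factor Cebpa by -2.37 ± 0.17 and the liver X receptor Nr1h3 by -1.96 ± 0.08. Bscl2, which encodes seipin, an endoplasmic reticulum protein of droplet formation that binds AGPAT2 and lipin 1, changed by -1.61 ± 0.09 and was 3.03 above preadipocytes after it. Srebf1, the gene of the lipogenic factor SREBP-1, rose instead, with means of 11.02 ± 0.14 with PPAR gamma siRNA, 10.43 ± 0.07 with control siRNA and 8.18 ± 0.08 in preadipocytes (SD, n = 3), a knockdown change of 0.59 ± 0.09. Creb1, a cAMP-responsive factor, and Cnep1r1, a subunit of a phosphatase that acts on lipins, rose by 0.49 ± 0.11 and 0.31 ± 0.09.

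Against preadipocytes, 23 of the 52 list genes were higher in PPAR gamma siRNA adipocytes and 11 lower (median 0.24), where 19.6% of all genes were higher and 16.9% lower (median 0.067). The largest differences were those of Gpat3 (4.07), Bscl2 (3.03), Srebf1 (2.84) and Pcx (2.74) upwards, and of Pgs1 (-0.97) and Plpp3 (-0.94) downwards. The Pgs1 probe set also carries the suffix x.

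The genes most like each member over the 9 arrays were found by the root mean square difference between log2 values centred on each gene's mean, as a description of profiles that rest mainly on 3 group means. Pck1 lay nearest to B3galt2, at 0.20, and to Aldh3b2, at 0.25. Aqp7 lay nearest to Mettl7b (0.18) and Pygl (0.20), Gpd1 to Car3 (0.24), Dgat1 to C1qtnf12 (0.11), and Dgat2 to Vsir (0.22). Agpat3 had the closest neighbour, Acadm, at 0.044, and that of Agpat2 was Slc1a3, at 0.077, followed by Chpt1 of the list above, at 0.098. The neighbour of Lpin2, Rdh9 at 0.058, changed by 0.18 both with the knockdown and with differentiation.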

How the data were processed

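RNA from 3T3-L1 was hybridised to 9 arrays in 3 groups of 3, grouped by the sample titles. The authors deposited normalised log2 values, 1 for each probe set and array. The log2 scale was read from their range, 2.41 to 14.59. Per the submitters' processing notes, MAS5, RMA and the affy package 1.16.0 belonged to the processing. Their roles and any background correction were not given in the sources used here. Nothing was rescaled for the main results. Detection calls were not used, and precision is limited by having 3 arrays in each group.

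The 64 control probe sets were left out, and 45037 were fitted with limma 3.58.1 in R 4.3.3, by group means with empirical Bayes variances. Tests were two-sided with Benjamini-Hochberg adjustment over the 45037, and the fit was tested on simulated data. Comparisons were PPAR gamma siRNA against control siRNA, control siRNA against preadipocytes, and PPAR gamma siRNA against preadipocytes. They share arrays and are not independent. The probe annotation gave 34945 probe sets a single symbol, and 932 with several genes were not named. All members were named, with up to 3 called genes of each pathway list in each direction and the 2 most similar genes of each member as candidates. The members and lists were chosen with earlier results of these data known. Alternatives covered normalisation, dim probe sets, variance model, probe set choice, thresholds, RNA integrity, a replicate block and omission of each array. No source used here gives a scan or extraction batch. The control probe set BioB-5 read 7.95 to 8.49 with PPAR gamma siRNA, 8.44 to 8.73 with control siRNA and 7.08 to 7.60 in preadipocytes. Preadipocyte arrays thus lay below all adipocyte arrays there, and the source of this difference was not tested.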

Additional observations from a re-analysis of the deposited data

How the results depend on the processing

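Under 21 alternatives the 30 member changes gave 630 values, of which 606 kept their direction and call, 21 lost the call, 2 gained one and 1 turned its direction. The count of members lower with the knockdown stayed at 8 or 9 and of members higher with differentiation at 9 or 10, and members higher in PPAR gamma siRNA adipocytes than in preadipocytes ranged from 7 to 9. Over all genes the same 3 counts ranged from 838 to 3064, from 1607 to 5095 and from 781 to 3808. Without x and s probe sets, where another probe set stands for Dgat1, its difference from preadipocytes after the knockdown was -0.055 (adjusted p = 0.891) and the knockdown change of Dgat1 minus Dgat2 was 0.66. Averaging all probe sets of a gene put this change at 0.19 and also ended the Agpat3 call against preadipocytes (0.011, adjusted p = 0.959), and the Gpam knockdown call ended at a 2-fold minimum. Counts of pathway list genes followed the threshold. Against 1.2-fold, 9 were higher with the knockdown and 6 lower in PPAR gamma siRNA adipocytes than in preadipocytes. At 2-fold or more, 2 were higher and 14 lower with the knockdown, beside 5.68% and 4.61% of all genes. With differentiation 6 were lower at 2-fold or more, beside 10.6% of all genes. In PPAR gamma siRNA adipocytes 12 were higher and 0 lower than in preadipocytes at 2-fold or more, beside 4.29% and 5.01% of all genes. Over all 18193 genes the knockdown counts were 2131 higher and 1726 lower against 1.2-fold, and 1033 and 838 at 2-fold or more. Tested against 1.2-fold, 1762 of all genes were lower in PPAR gamma siRNA adipocytes than in preadipocytes. Arrays of the same replicate number did not deviate together (correlations from -0.19 to 0.17 over 9 pairs), which gave no sign that the numbers pair the arrays. The highest correlation between arrays of different groups, 0.29, was that of control siRNA 1 with PPAR gamma siRNA 3. With a replicate block 3477 genes were higher and 2837 lower in the knockdown, and 9 members were lower. Leaving out the adipocyte arrays of highest Actb difference, control siRNA 1 and PPAR gamma siRNA 3, was chosen after seeing the data, and gave 9 members lower with the knockdown and 7 higher than in preadipocytes. No depth can be given for arrays, and levels below the array medians, as for Pck1 and Aqp7 outside control siRNA adipocytes, may understate folds.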
